A study of Oryza sativa with 2 samples.

Results

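The last part of rice chromosome 11 was described here as a run of neighbouring gene identifiers. Identifiers that begin with MH11g were sorted, and the last 20% were taken, which gave 915 of the 4574 identifiers of the chromosome and of 57342 with an FPKM value in the whole table. They run from MH11g0524400 to MH11g0665300. The rule itself uses position only, and the region was taken up with earlier results of these data known. The last 20% of each of the other 11 chromosomes, 708 to 1361 identifiers apiece and 10517 in all, served for comparison.

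All values come from a single group of 2 libraries of total RNA. The plants were Minghui 63, an indica rice that is one parent of the hybrid Shanyou 63, with no treatment and no mutant, 2 weeks old and collected at 8:00. Seeds were first soaked in water (72 h, 37 °C), and the growth chamber was then lit for 14 h at 32 °C and dark for 10 h at 28 °C. The RNA, 2 µg per library, was depleted of ribosomal RNA before sequencing. The sample label calls the tissue seedling and the extraction protocol names leaves. Whether separate plants were used for each library is not stated, so the spread between libraries may be technical.

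In rice, gene-rich and transcribed chromatin lies mostly along the chromosome arms, and transposable elements are densest around the centromeres. Chromosome 11 is known for large clusters of disease resistance genes, many of which encode nucleotide-binding leucine-rich repeat (NLR) receptors that detect pathogens, and such genes often stand as tandem copies. This is background only. No source used here paired the MH identifiers with gene names, 0 of them matched the reference gene table, and so no member is given a name or a role and no tissue marker could be looked up.

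Library 1 held 18096722 gene counts and library 2 held 18799901, of which 47.4% and 47.0% fell on MH identifiers. FPKM is the count divided by the gene length in kilobases and by the gene total in units of 1e+06 counts. An identifier was called expressed when library 1 and library 2 each gave it an FPKM of at least 1. Reads that aligned in several places were kept apart by the counting and belong to no gene in these tables. They made up 27.7% and 25.8% of all entries in the count tables of libraries 1 and 2. How many of them belong to chromosome 11 cannot be read from these files, so a low count may be an undercount where a gene has near-identical copies.

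The last part of chromosome 11 held few expressed genes. Of the 915 members, 101 were expressed, which is 11.04% (95% Wilson interval 9.17% to 13.2%). Over all 57141 MH identifiers on the 12 chromosomes the same share was 23.3%, and in the rest of chromosome 11 it was 15.6%. In the last parts of the other 11 chromosomes it lay between 28.8% on chromosome 12 and 41.8% on chromosome 3, with a median of 36.3%. The highest bound for chromosome 11, 13.2%, lay below the lowest bound of any other end, which was 25.6%. Neighbours can share their state, so these intervals are likely too narrow, and with 1 such region against 11 no test was made.

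The libraries gave this share separately. In library 1, 12.02% of the members reached an FPKM of 1, and in library 2 11.8% did. The other 11 ends ran from 29.2% to 43.3% in library 1 and from 29.8% to 43.0% in library 2. Only 9 members reached the floor in library 1 alone and 7 in library 2 alone. Close below the floor, MH11g0664600, named after its values were seen, missed it with 1.05 in library 1 and 0.926 in library 2. The lowest expressed member by mean FPKM was MH11g0652700, also named after its values were seen, with 1.09 and 1.02 in libraries 1 and 2.

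Members without any count were common. In both libraries together 415 members had 0 counts, which is 45.4% (95% Wilson interval 42.2% to 48.6%). Over all MH identifiers the share was 36.2%, and in the rest of chromosome 11 it was 41.6%. In the other 11 ends it lay between 20.6% on chromosome 3 and 28.5% on chromosome 12. A further 80 members had 0 counts in library 1 alone and 107 in library 2 alone. With 3 counts of the gene total as the limit for a gene without counts, such a member may still have had up to 0.166 CPM in library 1 and up to 0.160 CPM in library 2. That limit covers counting error only, and only reads with a single alignment. Members with 1 to 9 counts in sum numbered 312, or 34.1%, against 20.8% to 28.8% in the other ends. This share was 29.4% over all MH identifiers and 32.5% in the rest of chromosome 11. The remaining 188 members, or 20.5%, had 10 or more counts, against 42.7% to 58.6% in the other ends. That share was 34.4% over all MH identifiers and 25.9% in the rest of chromosome 11.

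**Figure D1:**
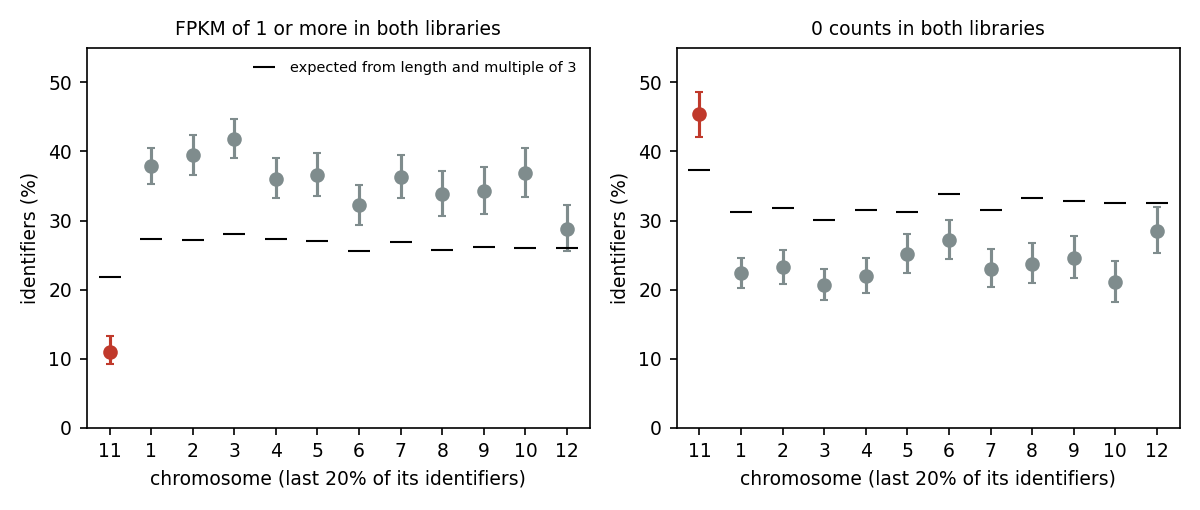
Share of identifiers expressed (left, in %, FPKM of at least 1 in each library) and with 0 counts in both (right, in %) in the last 20% of each chromosome, chromosome 11 first and in red. Bars are 95% Wilson intervals and black dashes give the share expected from gene length and from whether the length is a multiple of 3. Chromosome 11 stands at 11.04% and 45.4%, outside the range of the other 11 in both panels.

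Where members were expressed, their median level was below that of the other ends, though close to the lowest of them. The median of the mean FPKM over the 101 expressed members was 4.08, and the quartiles were 2.14 and 7.96. In the other 11 ends that median lay between 4.14 and 5.65. It was 4.34 in the rest of chromosome 11 and 4.89 over all MH identifiers. With the floor raised to an FPKM of 10, 21 members remained, or 2.30%, against 7.91% to 12.6% in the other ends. Over all MH identifiers it was 6.20%. At 100 or more 5 remained, or 0.546%, which lay within the range of the other ends, 0.408% to 1.39%. Of those 11 ends 9 had a higher share, and over all MH identifiers it was 0.534%. At 1000 or more a single member remained, or 0.109%, beside 0.0560% over all MH identifiers, and the other ends held from 0 to 2. The shortfall in the number of members was therefore seen at floors of 1 and 10. At 100 and above too few members remained to tell.

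Along chromosome 11 the expressed share was not much higher in the last part than in the middle, unlike on the other chromosomes. Each chromosome was divided into 5 parts in identifier order. On chromosome 11 the expressed share was 22.7%, 14.3%, 9.62%, 15.5% and 11.04% from the first part to the last. The last part thus exceeded the middle one by 1.42 percentage points. On the other 11 chromosomes the last part exceeded the middle part by 17.4 to 26.3 points, with a median of 21.5. For identifiers with 0 counts the last minus middle difference was -2.08 points on chromosome 11, and between -28.3 and -15.3 points on the others. The middle part of chromosome 11 was not itself out of range, since the middle parts of the others held from 8.91% to 20.4% expressed identifiers. A low chromosome end was also not limited to chromosome 11. The first part held 9.51% expressed identifiers on chromosome 4, 10.2% on chromosome 10 and 11.7% on chromosome 9. Identifiers with 0 counts made up 64.4%, 51.8% and 52.04% of those first parts, above the 45.4% of the last part of chromosome 11.

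**Figure D2:**
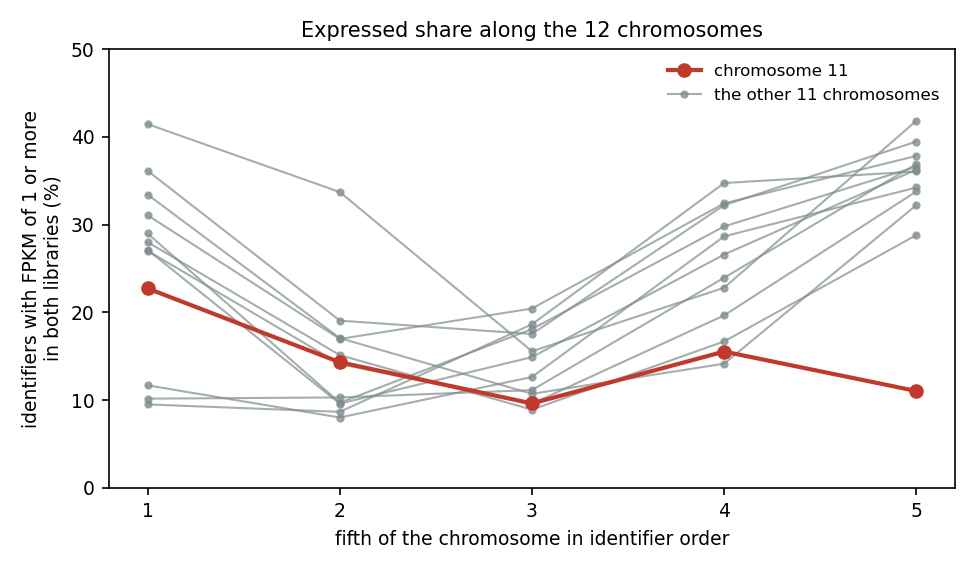
Share of expressed identifiers (vertical axis, %) in 5 consecutive parts of each chromosome (horizontal axis), with chromosome 11 in red and the other 11 chromosomes in grey. All grey lines end between 28.8% and 41.8%, while the red line ends at 11.04%.

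Within the last part of chromosome 11 expression was uneven along the identifier order. The members were divided into 10 consecutive groups of 91 or 92. The expressed share was 14.1%, 19.6% and 22.8% in the first 3 groups. It was 5.43%, 7.61%, 2.20%, 5.49%, 3.30% and 8.79% in the next 6. In the group that reaches the end of the chromosome it was 20.9%. Divided this way after the values were seen, 71 of 367 members in the outer 4 groups were expressed (19.3%), beside 30 of 548 in the inner 6 (5.47%). Members with 0 counts ran from 29.3% in the third group to 56.0% in the eighth. Even the group with most expressed members, at 22.8%, lay below the whole last part of every other chromosome.

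The identifier numbers rise in steps of 100, and in the last part of chromosome 11 909 of the steps were of 100 and 5 were of 10000. The other ends held from 0 to 4 larger steps. The sources used here do not say what a large step stands for. The 5 large steps divide the members into 6 stretches. The first, of 240 members, had 42 expressed (17.5%). The second, of 315 members, had 24 (7.62%). The next 2 held 2 of 37 and 3 of 58. The fifth stretch, MH11g0629000 to MH11g0635900, had 70 members and none of them expressed. It held 137 counts in library 1 and 136 in library 2, and 43 of its members had 0 counts. Its leading member, MH11g0629300, named after its values were seen, had 28 and 29 counts and an FPKM of 0.731 and 0.728. The sixth stretch, of 195 members, had 30 expressed (15.4%) and reached the end of the chromosome.

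Members with 0 counts stood together in long runs. The longest run of members with 0 counts in both libraries had 15, from MH11g0571100 to MH11g0572500, and the next had 10, from MH11g0562900 to MH11g0563800. The longest such run in the other ends had 5 to 12. In the 15 the lengths ran from 261 to 5442 bases. Their median was 522, below the 873 of all members with 0 counts, so the run held mainly short models. In the run of 10 the median was 1399.5 bases. The longest run without an expressed member had 86, from MH11g0618000 to MH11g0646300, against 14 to 37 in the other ends. Longer or similar runs lay elsewhere. In the rest of chromosome 11 the longest run had 83 without an expressed identifier and 23 with 0 counts, and over all MH identifiers 173 and 46. Those 86 members held 153 counts in library 1 and 155 in library 2, and 48 of them had 0 counts in both. Since runs grow longer wherever expressed members are fewer, their length adds no separate evidence to the shares above.

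Expressed members also stood beside each other in places. The longest run of them had 9, from MH11g0529200 to MH11g0530000, directly after a run of 7 members with 0 counts that ends at MH11g0529100. In the 9 the FPKM ran from 2.06 to 7.94 in library 1 and from 1.61 to 7.39 in library 2. Their highest member, MH11g0529500, had 353 and 341 counts in libraries 1 and 2. The longest run of expressed identifiers in the other ends had 7 to 12, so the run of 9 was within their range. These runs, and MH11g0529500, were singled out after their values were seen.

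**Figure D3:**
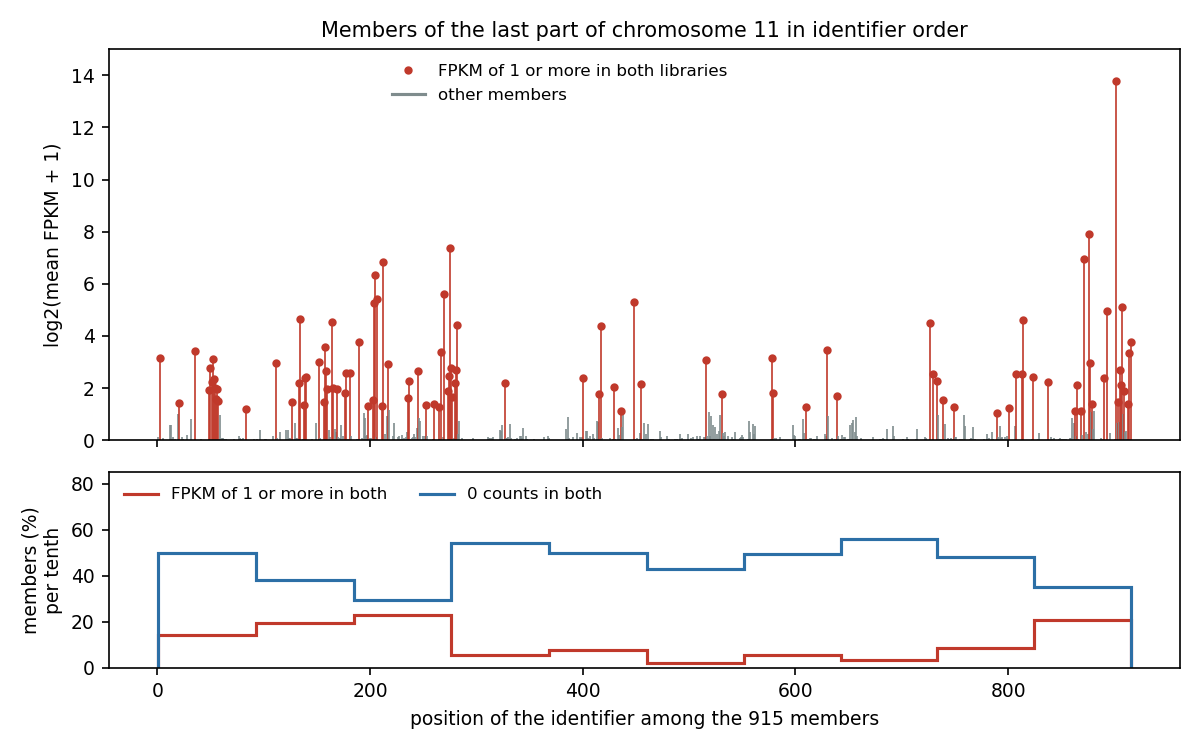
Upper panel: log2(mean FPKM + 1) over both libraries for each of the 915 members in identifier order, with members that reached an FPKM of 1 in both libraries in red and the others in grey. Lower panel: share of members (%) that were expressed (red) and with 0 counts in both (blue) in 10 consecutive groups. Red points are dense in the first 3 groups and the last, and MH11g0663900 stands far above the rest near the right end.

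The counts of the region lay almost wholly in a single identifier. MH11g0663900, a model of 1398 bases, collected 358039 counts in library 1 and 376098 in library 2. Its FPKM was 14152 in library 1 and 14310 in library 2, the highest of all MH identifiers. It took 88.5% of the counts of the 915 members in library 1 and 88.8% in library 2, a mean of 88.7% ± 0.248 (SD, n = 2). It also took 4.17% and 4.26% of all MH counts. In the other 11 ends the leading identifier held between 5.61% on chromosome 2 and 23.2% on chromosome 7, with a median of 8.77%. The leading identifier of the end of chromosome 7, MH07g0519600, collected 45555 and 46322 counts in libraries 1 and 2, the most of any leader outside chromosome 11.

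MH11g0663900 stood alone among its neighbours. It was the 15th identifier from the end of the chromosome. Among the 10 identifiers before it 1 was expressed and 6 had 0 counts, and among the 10 after it 5 were expressed and 0 were without counts. The highest count among these 20 was 945 in library 1 and 979 in library 2. The next member by counts in the whole region, MH11g0660900, had 5382 counts in library 1 and 5330 in library 2. MH11g0663900 exceeded it 66.5-fold in library 1 and 70.6-fold in library 2. On the FPKM scale the next member was MH11g0661400, a model of 225 bases with 238 in library 1 and 236 in library 2, and MH11g0663900 was 59.3-fold and 60.7-fold above it.

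The concentration is seen in how few identifiers account for the counts. In the last part of chromosome 11 a single identifier made up 50% of the counts, and 90% was reached with 3 in library 1 and 2 in library 2. In the other 11 ends 14 to 36 identifiers were needed for 50% in library 1 and 14 to 35 in library 2. For 90% they needed 104 to 259 in library 1 and 103 to 257 in library 2. The effective number of identifiers is the inverse of the sum of squared count shares. It was 1.27 ± 0.00708 (SD, n = 2) for the last part of chromosome 11 and 16.0 to 74.6 in the other ends. Here it mostly restates the leader's share. The rest of chromosome 11, 3659 identifiers, also lay beyond the other ends in some of these measures. Its leader held 31.5%, 5 identifiers made up 50%, and its effective number was 8.80. For 90% it needed 206 in library 1 and 202 in library 2, within their range.

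**Figure D4:**
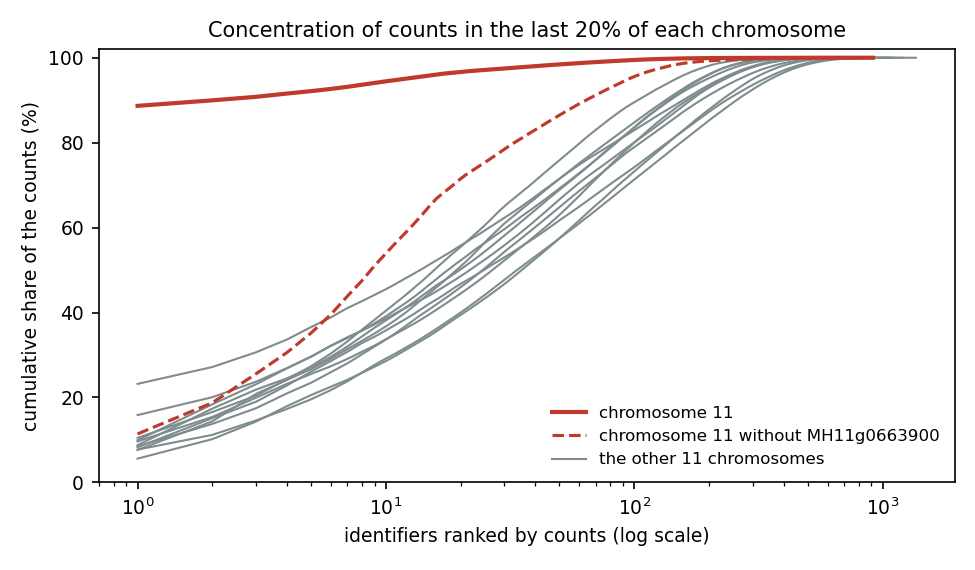
Cumulative share of the counts (%, both libraries summed) against the rank of the identifier by counts (log scale) in the last 20% of each chromosome. Chromosome 11 (solid red) starts at 88.7%, its members without MH11g0663900 (dashed red) start at 11.4%, and the other 11 chromosomes (grey) start between 5.61% and 23.2%.

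Without its leading identifier the region ranked last in counts. With it, the last part of chromosome 11 held 404588 counts in library 1 and 423316 in library 2, more than any of the other ends, which reached 333773 and 344460 on chromosome 3. With the leader of each end left out, it held 46549 and 47218 counts, below all the others, of which chromosome 12 was lowest with 88718 and 91460. Per remaining identifier that was 50.9 counts in library 1 and 51.7 in library 2, against 125 to 254 and 129 to 263 in the other ends. Likewise without its leader, the rest of chromosome 11 had 86.6 and 89.1, and all MH identifiers had 144 and 148. The remaining counts were still more concentrated than in the other ends. The 10 highest remaining members held 53.9% ± 0.154 (SD, n = 2), against 24.6% to 35.6%. The effective number of the remaining members was 25.4 ± 0.0369 (SD, n = 2), against 50.04 to 101 in the other ends. The rest of chromosome 11, a larger set of 3659 identifiers, was also concentrated once its own leader was left out. Its 10 highest remaining identifiers held 38.2%, and its effective number was 32.9. The highest remaining identifier held 12.4% there and 11.4% in the last part.

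Members below the leader were spread over the region. Those ranked 2 to 10 by counts had 1619 to 5382 counts in library 1 and 1684 to 5330 in library 2, and together held 5.86% and 5.70% of the region. MH11g0561700, the third by counts, had 3424 in library 1 and 3462 in library 2, at an FPKM of 167 and 163. MH11g0561200, the fourth, had 3096 and 3299 counts and an FPKM of 47.6 and 48.9. Both lie in the second stretch of identifiers, near its start, and 5 places apart. MH11g0562400, the ninth, lies 7 places after MH11g0561700 and had 1691 and 1684 counts and an FPKM of 20.9 and 20.1. The 2 identifiers before it, MH11g0562200 and MH11g0562300, were also expressed, at an FPKM of 3.48 and 5.19 in library 1 and 3.76 and 5.64 in library 2.

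A group of 4 high members lay in the first stretch. MH11g0544700 had an FPKM of 38.1 in library 1 and 37.6 in library 2, and its neighbour MH11g0544800 had 79.5 and 79.2. MH11g0545000 had 41.0 and 41.8, and MH11g0545500, a model of 513 bases, had 113 in both. These 4 lie within 9 consecutive identifiers and all belong to the 10 members with the highest mean FPKM.

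Other members among the highest, or the longest, lay further along the region. MH11g0579000 had an FPKM of 39.7 in library 1 and 37.3 in library 2. MH11g0601900, with 9428 bases the longest member, had 1340 and 1390 counts but an FPKM of 7.85 and 7.84. MH11g0646400 had 2126 and 2178 counts at 5477 bases, and an FPKM of 21.4 and 21.2. By counts and by FPKM, 8 of the 10 highest members were the same. The last identifier of the chromosome, MH11g0665300, had 1004 and 1011 counts and an FPKM of 12.8 and 12.4. At the other border the first member, MH11g0524400, had 0 counts in library 1 and 1 in library 2, and MH11g0524300 just outside had 0 in both.

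Gene lengths in the region differed from those of the other ends. The median length of the 915 members was 1371 bases (95% interval from order statistics 1212 to 1479). The other 11 ends had medians from 1516 on chromosome 6 to 1759 on chromosome 3, so the region had the shortest median of the 12 ends, with 1 of the others shorter when the last 30% was taken (1419 bases, against 1412 to 1626). It was not short beside other parts of the genome, since the median was 1254 in the rest of chromosome 11 and 1329 over all MH identifiers. Among identifiers with a count in either library its median was 1891 bases, inside the range of the others, 1772 to 2012. Its upper quartile, 2759 bases, lay within the range of the others, 2451 to 2939. Of its lengths 81.4% were multiples of 3 (95% Wilson interval 78.8% to 83.8%), against 59.6% to 67.0% in the other ends. In the rest of chromosome 11 it was 78.7% and over all MH identifiers 74.3%. Whole transcripts would have lengths divisible by 3 in about 1 of 3 cases, so part of these models may hold coding sequence alone, and the kind of model is mixed with the level wherever FPKM is used.

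Length and kind of model moved with expression, and both were compared. The 101 expressed members had a median length of 2258 bases and the members with 0 counts had 873, beside 1947 to 2286 and 588 to 974 in the other ends. Given the 10 length classes and the divisibility by 3 of its members, and the shares of all MH identifiers in those classes, 21.8% of the members would have been expressed. The measured share was 10.8 points below that, whereas the other ends lay 2.77 to 13.7 points above theirs. For 0 counts 37.3% would have followed, and the measured share was 8.05 points above, whereas the other ends lay 4.03 to 11.5 points below theirs. The rest of chromosome 11 differed in the same directions as the last part. Its measured minus expected difference was -6.52 points for expressed identifiers and 4.10 points for 0 counts.

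The low share was seen in each length class. Among members of up to 591 bases, 6.58% were expressed, against 16.5% in the other ends pooled. From there to 1329 bases the shares were 5.36% and 27.05% for the last part of chromosome 11 and the other ends. Up to 2496 bases they were 14.3% and 42.6%, and above that 17.3% and 51.05%. Over all MH identifiers the shares were nearer, at 9.74%, 14.8%, 31.1% and 37.5% from the shortest class to the longest. Among the 745 members whose length is a multiple of 3, 8.32% were expressed, against 23.5% to 32.7% in the other ends. Among the 170 other members 22.9% were expressed, against 39.3% to 55.5%. For multiples of 3 and other lengths the shares were 16.3% and 43.3% over all MH identifiers. In the rest of chromosome 11 they were 10.6% and 34.1%. The number of reads left uncounted because they align in several places is not given per gene, and its part in these shares was not tested. Fewer cells that use a gene and less RNA per cell cannot be told apart in RNA of whole tissue.

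The libraries were set against each other to see how far the members' values held. The test was a two-sided exact binomial test on counts over the whole table, scaled by edgeR's TMM factors, with Benjamini-Hochberg adjustment. It compares these libraries and not conditions. Its p-values and intervals cover counting error only, since each side is a single library and reads were not counted as molecules. Among the 188 members that reached 10 counts summed over the libraries, 1 passed an adjusted p of 0.05 in this exact test, beside 134 of 19770 identifiers in the whole table, which is 0.678%. At an unadjusted p under 0.05 there were 11 members, or 5.85%, beside 8.31% of all identifiers tested. In the other ends 28 of 5457 tested identifiers were called, or 0.513%, beside 0.532% of the members. The median count in sum was 122.5 among the 188 members, 200 in the other ends and 180 over all tested.

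The member that passed was MH11g0663900. Its scaled count in library 1 was 0.971 times that in library 2 (95% interval 0.967 to 0.976), a log2 ratio of library 1 over library 2 of -0.04, and the exact test gave an adjusted p of 1.51e-32. Under 5 alternatives of scaling and count filter the adjusted p lay between 3.22e-95 and 0.000727, and the log2 ratio between -0.07 and -0.02. Of 1467 MH identifiers that averaged at least 1000 counts, 53.9% differed by more than this between the libraries, with a median absolute log2 ratio of 0.05, so the interval is narrower than the usual difference between the libraries. MH11g0526200, named after its values were seen, had 46 counts in library 1 and 88 in library 2, a log2 ratio of -0.90. Its adjusted p in the exact test was 0.0643 and lay between 0.0397 and 0.186 over 5 alternatives, passing 0.05 with DESeq2 size factors (0.0397), which were exactly 1 for each library and so left the counts unscaled, and with a filter of 100 counts (0.0425).

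**Figure D5:**
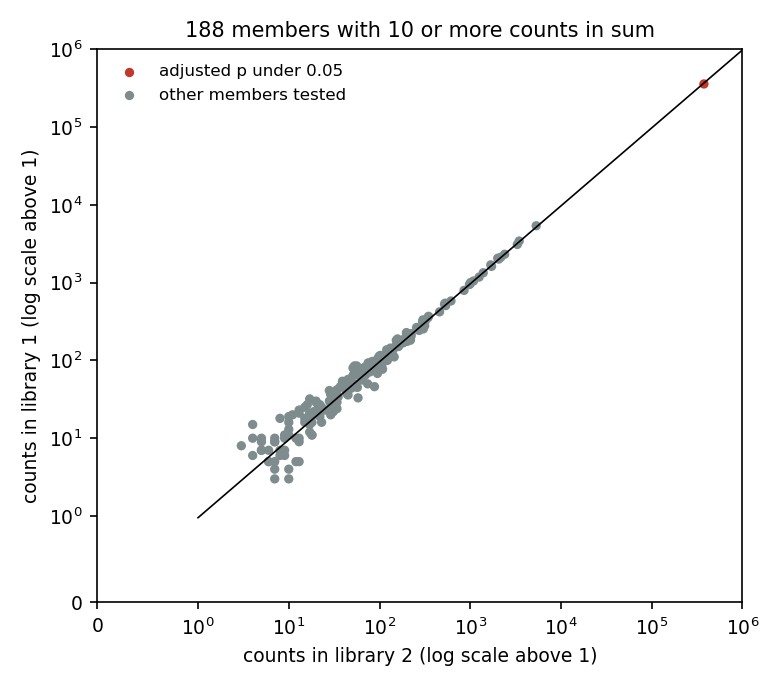
Counts in library 1 (vertical) against library 2 (horizontal), both on a log scale above 1, for the 188 members with 10 or more counts in sum. The line marks equal scaled counts, and the red point is MH11g0663900, at 0.971 times its library 2 level in library 1.

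Across the 101 expressed members the Spearman rho of FPKM between the libraries was 0.978. In the other ends it lay between 0.973 and 0.990. It is a coefficient across genes, which are not independent replicates.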

How the data were processed

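Counts are whole reads per gene, deposited raw as made with Trimmomatic, HISAT2 and HTSeq, per the submitters' processing notes. Not given in the sources used here were versions, genome build, annotation and strand setting. The FPKM values are the authors' own, as deposited, and were checked to equal the count over length in kilobases and over the gene total in units of 1e+06, to within 5e-06. Counting summary lines named no gene and stayed out of library sizes: no feature 8.08% and 7.95%, not aligned 6.15% and 4.31%, several alignments 27.7% and 25.8%, low quality 0.958% and 1.01%, ambiguous 0.0330% and 0.0338%.

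Identifiers were sorted as text and the last 20% taken per chromosome. Shares carry Wilson intervals, which cover counting error only. Library ratios used TMM-scaled sizes (edgeR 4.0.16, R 4.3.3), a pseudocount of 0.5 and exact binomial tests on identifiers that reached 10 counts over both libraries (scipy 1.17.1). DESeq2 1.42.0 size factors were an alternative, but came out as 1 and 1 and left the counts unscaled. On simulated counts with sampling noise only, 61 of 100 identifiers with a 1.5-fold change and 77 of 100 with a 2-fold change were called, and so were 9 of 19631 unchanged ones. The changed identifiers were drawn only from those with counts well above the test's floor of 10. Recovery among members nearer that floor was therefore not measured. The members and tests were chosen with earlier results of these data known. Named identifiers were the 10 highest by mean FPKM and by counts, the borders, the longest member, the longest runs with 0 counts, called members, and leaders of other ends. Others are marked in the text as named after their values were seen. The exceptions, named likewise, are the 2 identifiers beside MH11g0562400 and the borders of the fifth stretch. So are the borders of the longest run without an expressed member.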

Additional observations from a re-analysis of the deposited data

Results flagged for a closer look

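The summary lines of the count tables hold signal that no gene comparison uses, and each line is well over 3 counts. Entries with several alignments made up 27.7% of all entries in library 1 and 25.8% in library 2, and aligned entries without a counted feature made up 8.08% and 7.95%. Neither kind is given per gene, so their share on the last part of chromosome 11 is not known.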

How the results depend on the processing

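No paired analysis was possible because both libraries belong to a single group. The expressed share of the last part of chromosome 11, 11.04%, was 14.3% at an FPKM of 0.5, 4.15% at an FPKM of 5, 17.4% at 10 counts in both libraries, 14.5% with FPKM rescaled to MH counts, 8.32% and 22.9% among lengths that are and are not multiples of 3, 8.08% for the last 10% of identifiers, and 11.8% to 12.02% with either library left out. It was the lowest of the 12 ends under all 11 alternatives. The share with 0 counts, 45.4%, was 79.5% for fewer than 10 counts in sum, 49.7% and 26.5% among lengths that are and are not multiples of 3, and 54.1% to 57.0% with either library left out, and it was the highest of the 12 under all 8 alternatives. Standardised to length and divisibility by 3 the shares were 11.8% and 44.03%. The median length, 1371, was 1891 among identifiers with a count, where 6 of the other 11 ends were lower, so the shorter median was not seen there. It was 1419 for the last 30%, with 1 end lower, 1122 for multiples of 3, where 4 were lower, and 2180 for other lengths, where 8 were lower. The leading identifier's share, 88.7%, was 90.6% of summed FPKM, 95.2% for the last 10%, 82.9% for the last 30%, 88.5% to 88.8% by library, and 11.4% without MH11g0663900. The top 10 share, 94.5%, was 96.2%, 98.7%, 88.5%, 94.4% to 94.5% and 53.9% under the same alternatives. Members that differed between libraries numbered 1, and 2 with DESeq2 size factors, which were 1 and 1 and left the counts unscaled, or a filter of 100 counts, the added one being MH11g0526200. Depth limits what can be said of members with few counts, and the counting limits what can be said of genes with copies.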
